A study of Mus musculus with 6 samples.

Results

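The cell cycle and DNA replication genes described here are 54 named genes, looked up by symbol among the 33639 gene symbols of the deposited tables, and all 54 were found. They fall into 19 replication genes (origin licensing and the replicative helicase, the sliding clamp and nucleotide supply, cyclin E and E2F), 34 mitosis genes (mitotic cyclins and kinases, checkpoint, kinetochore, spindle and cytokinesis) and cyclin D1 (Ccnd1). The RNA sequenced came from mice with a whole-body deletion of Abcg8, which with Abcg5 forms the pump that returns plant sterols to bile and gut. Every mouse carried the deletion, was labelled male and, per the labels, was reared to weaning on low sterol chow containing 0.005% ezetimibe, an inhibitor of intestinal sterol uptake. Afterwards the mice ate for 12 weeks a diet with low sitosterol, high sitosterol, ergosterol or stigmasterol. There were 4 liver libraries, 1 for each diet, and 2 adrenal libraries, for low and high sitosterol. No library of mice with intact Abcg8 is among these 6, and the age at collection, the sterol content of the diets and the number of mice behind a library are not given in the sources used here.

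DNA replication begins when the MCM helicase is loaded on origins with the help of Cdc6 and Cdt1 and is then started by cyclin E kinase together with Cdc45 and the GINS complex. Entry into mitosis is driven by cyclin B bound to CDK1, and its end by the anaphase-promoting complex with Cdc20 and Ube2c. Replication genes are mostly switched on by E2F factors in late G1, whereas mitosis genes are transcribed later, in G2, by Foxm1 and B-Myb bound with the MuvB complex. MuvB contacts the cell cycle genes homology region, and the CCAAT box, which NF-Y binds, is common in the same promoters. Adult hepatocytes seldom divide, many are polyploid, and they re-enter the cycle after loss of liver mass.

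Sequencing depth lay between 41546507 and 50573364 estimated counts a library, and the limit set by a count of 0, which is 3 counts, was between 0.0593 and 0.0722 CPM (the count's share of all counts in its library, on the usual scale). Levels are given as scaled CPM, that is CPM divided by the TMM factor of the library within its tissue. The stigmasterol liver had the highest factor, 1.35, against 0.83, 0.95 and 0.93 in the low sitosterol, high sitosterol and ergosterol livers. Scaling to library totals instead would raise every stigmasterol to low sitosterol ratio by 0.69 on the log2 scale, and the high sitosterol and ergosterol ratios by 0.20 and 0.16. The livers carried 2 Y-linked genes (Eif2s3y and Ddx3y) at 34.7% to 49.6% of their X-linked partners, whereas the adrenal libraries labelled male held them at 0.0081% and 0.0106%, which goes against that label. The low sitosterol liver also held adrenal cortex genes at 0.115% of their adrenal level, against 0.0040% to 0.0131% in the other livers; at that share, adrenal RNA would add at most 0.68 counts to a mitosis gene and 3.67 to a replication gene there. Liver libraries had Abcg8 at 51, 490, 394 and 788 counts in the order low sitosterol, high sitosterol, ergosterol and stigmasterol, but the deleted stretch is not given, so this does not check the genotype. Since each group is 1 library, the data hold no replicate error and allow no test between diets. A gene is counted as higher or lower when it differed at least 2-fold and its exact 95% interval, which covers counting error only, excluded equality. The interval compares 2 libraries, not 2 diets. In bulk tissue, more cycling cells and more of these transcripts per cell cannot be told apart.

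The mitosis genes stood in 1 order in the livers: low sitosterol, ergosterol, high sitosterol, stigmasterol. By scaled CPM, 27 of the 34 followed that order in full, all 34 were highest in the stigmasterol liver, and 30 were lowest in the low sitosterol liver. The replication genes followed it less: 7 of 19 did in full, and 16 of 19 were highest in the stigmasterol liver, the exceptions being E2f8 (highest on low sitosterol) and Tk1 and Ccne1 (highest on high sitosterol). In TPM, which is scaled by transcript length and so can be summed over genes, the mitosis genes came to 33.1 in the low sitosterol liver, 55.4 in the ergosterol liver, 67.0 in the high sitosterol liver and 433 in the stigmasterol liver. The replication genes came to 68.5, 78.0, 106 and 202 TPM in the same order. The mitosis sum was therefore 0.483 of the replication sum on low sitosterol and 2.15 times the replication sum on stigmasterol. In the low sitosterol liver 31 of 34 mitosis genes lay under 1 TPM and Cks2 alone, a small CDK-binding subunit, made up 64.1% of the mitosis sum; in the stigmasterol liver 1 gene lay under 1 TPM.

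**Figure D1:**
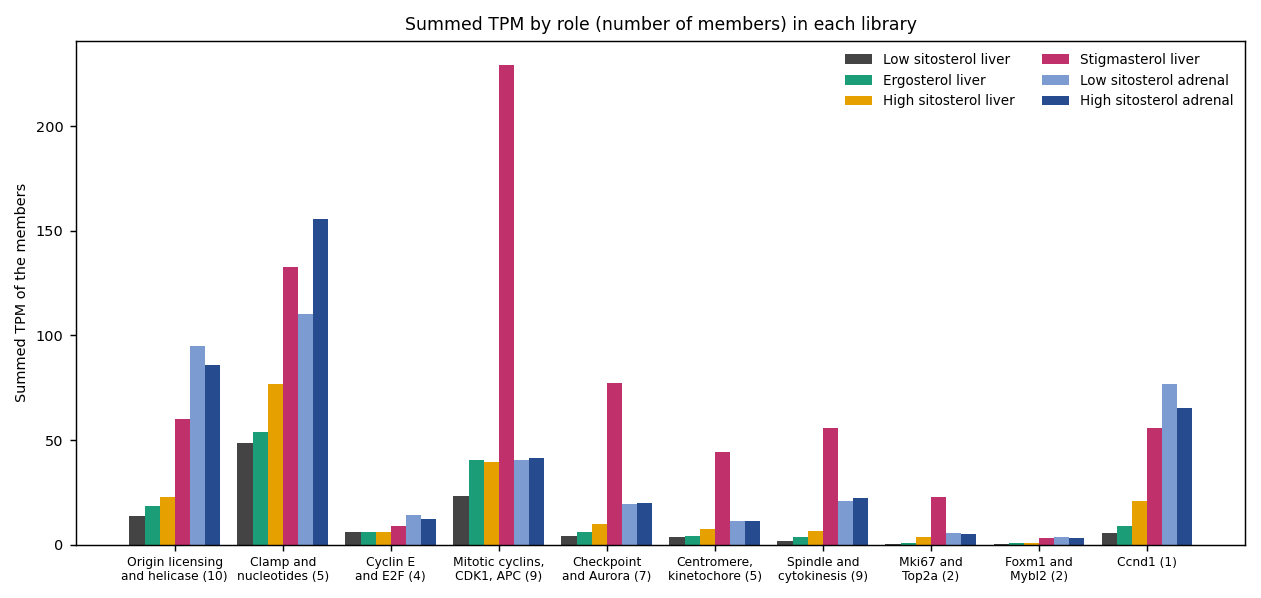
Summed TPM (vertical axis, from 0) of the members of each role, with the number of members in brackets, in the 4 liver and 2 adrenal libraries; each bar is 1 library and has no error. Mitotic cyclins, CDK1 and APC genes reach 229 TPM in the stigmasterol liver against 23.3 to 40.4 in the other livers, while the origin licensing genes reach 60.2 there and 95.1 and 85.8 in the adrenals.

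The shares of promoters with the letters of TTTGAA and of E2F sites differed in size between mitosis and replication genes, while CCAAT was common in both; these differences were not tested. RefSeq promoter windows (mouse GRCm38.p6, 250 bases before to 50 after the start) were matched by symbol for 44 of the 54 genes and searched on both strands for CCAAT, for the cell cycle genes homology region as TTTGAA, and for E2F in 4 spellings: first TTTGGCG, next TTTCCCG, then TTTCGCG and last TTTGCCG, whose matches can overlap one another. TTTGAA was in 21 of 29 mitosis windows (72.4%), in 3 of 17 replication windows (17.6%) and in 17.9% of all 32851 windows of the table. CCAAT was in 75.9% of mitosis, 64.7% of replication and 37.4% of all windows, and CCAAT together with TTTGAA in 62.1%, 17.6% and 6.95%. An E2F match was in 6.90% of mitosis, 35.3% of replication and 6.70% of all windows. A match describes these letters only. The windows of Kif2c, E2f1, Cdc6 and Mcm7 lie inside the annotated gene span, downstream of its start. Prc1 and Mcm7 have 2 windows each, so the shares are of windows and not of genes. Mcm2 and Cdc45 carried CCAAT and TTTGAA with no E2F match, as did E2f8. Mcm2 was counted as higher on stigmasterol and E2f8 as lower, so the same letters went with both directions. The window of Ccnb1 held CCAAT and no TTTGAA. Shown are 4 mitosis promoters that carry CCAAT and TTTGAA, from genes whose values are given below (Mki67, Cdk1, Top2a and Cdc20), then 2 helicase promoters with E2F letters and no TTTGAA (Mcm5 and Mcm6) and that of E2f8, which went the opposite way in the livers and carries CCAAT and TTTGAA with no E2F match. Each begins 150 bases before the start, runs 5′ to 3′ on the gene's strand and stops before the annotated gene; capitals mark the motifs, and matches read from the other strand (ATTGG for CCAAT and likewise TTCAAA for TTTGAA) are in capitals too. The positions are chr7:135716380-135716529 (minus strand) for Mki67, chr10:69352939-69353062 (minus) for Cdk1, chr11:99024190-99024339 (minus) for Top2a, chr4:118437353-118437493 (minus) for Cdc20, chr8:75109359-75109508 (plus) for Mcm5, chr1:128359706-128359855 (minus) for Mcm6 and chr7:48881597-48881746 (minus) for E2f8.
Mki67: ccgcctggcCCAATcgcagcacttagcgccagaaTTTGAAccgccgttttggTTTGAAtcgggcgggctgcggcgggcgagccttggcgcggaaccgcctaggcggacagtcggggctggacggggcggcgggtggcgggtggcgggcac
Cdk1: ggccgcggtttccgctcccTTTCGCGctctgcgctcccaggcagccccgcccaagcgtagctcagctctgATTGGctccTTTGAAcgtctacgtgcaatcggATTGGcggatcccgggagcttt
Top2a: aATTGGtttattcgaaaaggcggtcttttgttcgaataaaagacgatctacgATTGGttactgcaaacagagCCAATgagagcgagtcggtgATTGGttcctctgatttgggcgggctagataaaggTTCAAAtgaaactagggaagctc
Cdc20: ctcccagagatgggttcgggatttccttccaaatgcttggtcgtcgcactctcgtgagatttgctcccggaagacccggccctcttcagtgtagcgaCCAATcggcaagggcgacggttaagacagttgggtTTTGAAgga
Mcm5: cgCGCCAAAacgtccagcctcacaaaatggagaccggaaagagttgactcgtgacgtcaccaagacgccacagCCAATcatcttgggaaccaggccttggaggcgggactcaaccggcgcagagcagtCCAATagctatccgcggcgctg
Mcm6: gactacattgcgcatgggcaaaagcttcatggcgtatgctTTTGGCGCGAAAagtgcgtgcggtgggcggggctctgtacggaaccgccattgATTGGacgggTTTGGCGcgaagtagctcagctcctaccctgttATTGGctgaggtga
E2f8: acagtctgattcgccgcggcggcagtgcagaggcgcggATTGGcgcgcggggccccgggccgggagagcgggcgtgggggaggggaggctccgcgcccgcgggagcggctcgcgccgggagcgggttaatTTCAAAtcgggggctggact

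**Figure D2:**
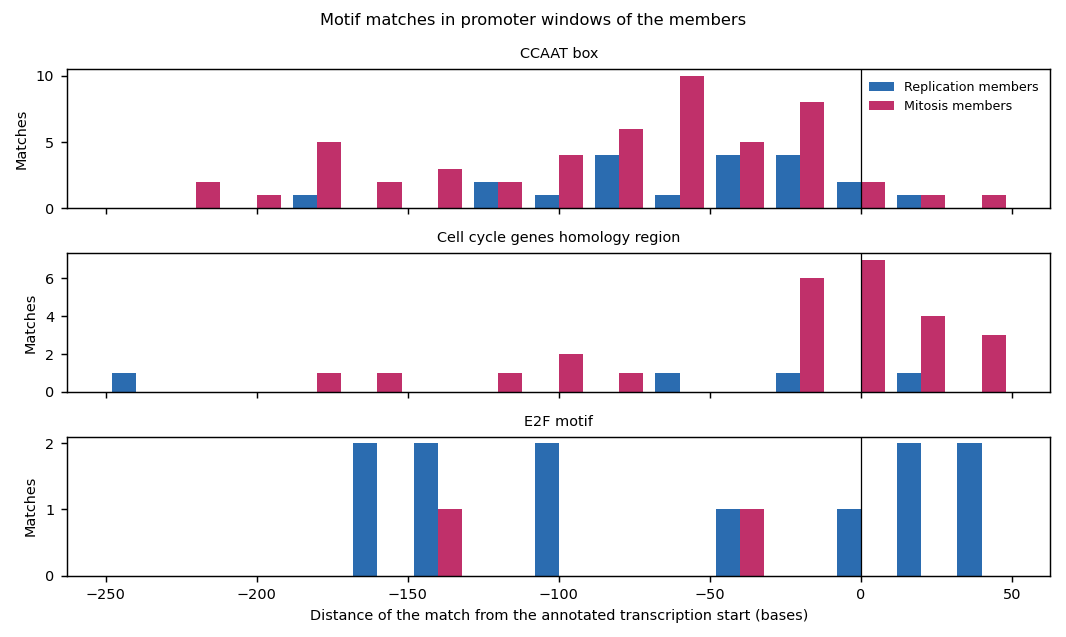
Number of motif matches (vertical axis) by distance from the annotated start in bases (horizontal axis, bins of 20 bases) in the windows of replication and mitosis genes. TTTGAA matches of the mitosis genes lie mostly close to the start, and E2F matches come mainly from replication genes.

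In the stigmasterol liver against the low sitosterol liver, 33 of 34 mitosis genes were counted as higher and 0 as lower, where 21.7% of the 13378 genes analysed were higher and 7.79% lower. The median log2 ratio of the mitosis genes was 4.82 (4.80 with the genes at 0 in one library set to their bound), against 0.08 over all genes analysed. Cks2 was the gene not counted, at 0.60. All 34 passed the filter of 1 CPM in at least 1 liver, but 9 passed it through the stigmasterol library alone, and such genes had to differ. They were Cdc25c, Bub1, Bub1b, Ttk, Cenpf, Nuf2, Ndc80, Kif2c and Mybl2. Without them 24 of 25 were higher and 0 lower, where 16.1% of the 12268 genes left were higher. Of the 19 replication genes, 18 passed, 1 of them through the stigmasterol library alone; 8 were higher and 1 lower, with a median of 0.83. Scaled to library totals 15 were higher, and on log2(TPM + 0.1) 16, with 1 lower under both, so the replication count on stigmasterol rests on the scaling while the mitosis count did not move beyond 33 to 34. Over all genes, the share of calls that were higher was 73.6% here, 92.9% with library totals and 95.2% on TPM. The share of all genes analysed that were higher was 21.7%, 39.5% and 46.5% in that order.

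Mki67, the standard marker of cycling cells (chromosome 7, 135689784 to 135716361, GRCm38), had 0.342 scaled CPM in the low sitosterol liver, 1.89 in the ergosterol liver, 7.95 in the high sitosterol liver and 32.5 in the stigmasterol liver, from 14, 84, 368 and 2218 counts. The stigmasterol to low sitosterol log2 ratio was 6.53 (95% counting interval 5.82 to 7.45), the high sitosterol ratio 4.49 (3.77 to 5.42) and the ergosterol ratio 2.42 (1.64 to 3.39), all counted as higher. Among the mitosis genes it was the one with the highest ratio on high sitosterol of those with counts in every liver. Top2a, the topoisomerase that untangles replicated chromosomes (chromosome 11, 98992943 to 99024189), had 0.684, 1.30, 3.41 and 19.6 scaled CPM in that order of livers. Its log2 ratios to low sitosterol were 4.82 (4.30 to 5.44) on stigmasterol and 2.30 (1.73 to 2.95) on high sitosterol. On ergosterol the ratio was 0.92 (0.25 to 1.63), under the 2-fold limit.

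Cdk1, the kinase that starts mitosis (chromosome 10, 69335146 to 69352938), had 0.684 scaled CPM on low sitosterol, 1.62 on ergosterol, 4.27 on high sitosterol and 24.6 on stigmasterol. Its log2 ratios were 1.23 (0.59 to 1.93), 2.62 (2.07 to 3.27) and 5.15 (4.63 to 5.76). Each step up that order was at least 2-fold for Cdk1. Its partner cyclin B1 (Ccnb1, chromosome 13, 100778650 to 100786570) had 5, 40, 66 and 1184 counts, or 0.122, 0.898, 1.42 and 17.4 scaled CPM. The ratio on stigmasterol was 7.05 (5.92 to 8.78), one of the 3 highest among mitosis genes of at least 1 CPM, with Ttk and Cdc25c. Ttk, a spindle checkpoint kinase, and Cdc25c, the phosphatase that activates CDK1, had 0 counts in the low sitosterol liver and 253 and 111 in the stigmasterol liver. Against the limit of 3 counts they were at least 50.6-fold and 22.2-fold higher there. On high sitosterol both had 15 counts, at least 4.42-fold higher. On ergosterol Ttk had 11 counts, at least 3.37-fold higher, and Cdc25c had 1.

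The other mitotic regulators followed with smaller or like ratios. Cyclin A2 (Ccna2) had 0.953, 1.39, 2.76 and 18.6 scaled CPM on low sitosterol, ergosterol, high sitosterol and stigmasterol. Cyclin B2 (Ccnb2) had 0.391, 0.875, 2.83 and 15.2; its processed pseudogene Ccnb2-ps held 24, 17, 32 and 25 counts, more than Ccnb2's 16 in the low sitosterol liver, so reads could have been split between them there. Plk1, a kinase of mitotic entry, had 0.147, 0.853, 1.23 and 13.9. Cdc20, the activator of the anaphase-promoting complex, had 0.342, 2.15, 1.92 and 32.1. It was thus as high on ergosterol as on high sitosterol: the log2 ratio between these livers was 0.16 with an interval of -0.27 to 0.60. Ube2c, the ubiquitin carrier of that complex, had 0.586, 1.03, 2.68 and 19.8. Cks2 was the flattest, at 12.5, 14.9, 12.7 and 19.0 scaled CPM, and per length it was the most abundant of these 9 genes in each liver, at 21.2, 33.2, 26.0 and 61.0 TPM. Of the 9 mitotic cyclin, kinase and APC genes, 8 were higher on stigmasterol, 8 on high sitosterol and 5 on ergosterol. Over all genes analysed the shares were 21.7%, 8.67% and 6.05%. Cdc25c had passed the filter through the stigmasterol library alone.

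All 7 checkpoint and Aurora genes were higher on stigmasterol, 5 on high sitosterol and 3 on ergosterol, where 21.7%, 8.67% and 6.05% of all genes were. Bub1, Bub1b and Ttk passed the filter through the stigmasterol library alone, so they had to differ there. Aurora A (Aurka), a kinase of the spindle poles, had 1.47, 3.30, 2.48 and 14.8 scaled CPM on low sitosterol, ergosterol, high sitosterol and stigmasterol. It was 1 of the 3 mitosis genes with a higher value on ergosterol than on high sitosterol, with Cdc20 and Cks2, at a log2 ratio of 0.41 (0.05 to 0.78). Aurora B (Aurkb) and survivin (Birc5), both of the chromosomal passenger complex, went from 0.318 and 0.757 on low sitosterol to 6.38 and 19.1 on stigmasterol. Bub1, which recruits checkpoint proteins to kinetochores, had 2, 9, 23 and 236 counts, for a stigmasterol ratio of 5.90 (4.28 to 9.20). Mad2l1, the checkpoint protein that holds Cdc20, differed least, at 3.42, 2.56, 5.40 and 12.6 scaled CPM. Its stigmasterol ratio was 1.88 (1.62 to 2.15).

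The 5 centromere and kinetochore genes were all higher on stigmasterol and 4 on high sitosterol, but 0 on ergosterol, where their median log2 ratio was -0.12. Cenpf, Nuf2 and Ndc80 passed the filter through the stigmasterol library alone, so they had to differ there. Cenpf had 5, 12, 45 and 563 counts on low sitosterol, ergosterol, high sitosterol and stigmasterol. Ndc80, which ties kinetochores to microtubules, had 9, 7, 47 and 195. Cenpa, the centromeric histone, was already at 3.59 scaled CPM on low sitosterol and had 3.08, 4.40 and 15.4 in the other livers. All 9 spindle and cytokinesis genes were higher on stigmasterol, 8 on high sitosterol and 5 on ergosterol, with Kif2c passing the filter through stigmasterol alone. Of all genes analysed, 21.7%, 8.67% and 6.05% were higher in these comparisons. Kif20a, a kinesin of cytokinesis, had 7, 53, 102 and 1331 counts, with log2 ratios of 2.72 (1.66 to 4.18), 3.60 (2.59 to 5.04) and 6.76 (5.79 to 8.15). Kif11, the motor that separates spindle poles, lay lowest of the 9 on stigmasterol with a ratio of 3.50, and Anln was the one not counted on high sitosterol, at 0.95.

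Foxm1, a transcription factor of the G2 genes (chromosome 6, 128362967 to 128376146), had 0.269, 0.494, 1.68 and 7.08 scaled CPM in the livers from low sitosterol through ergosterol and high sitosterol to stigmasterol. Its log2 ratios were 0.85 (-0.23 to 2.07), 2.60 (1.73 to 3.71) and 4.67 (3.87 to 5.73), the first not counted. Mybl2 (B-Myb) stayed low, at 9, 11, 21 and 68 counts. Its stigmasterol ratio of 2.14 (1.17 to 3.37) was counted and its high sitosterol ratio of 1.01 (-0.14 to 2.35) was not. On TPM, Mybl2 was lowest in the high sitosterol liver, at 0.132 against 0.254 on low sitosterol.

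**Figure D3:**
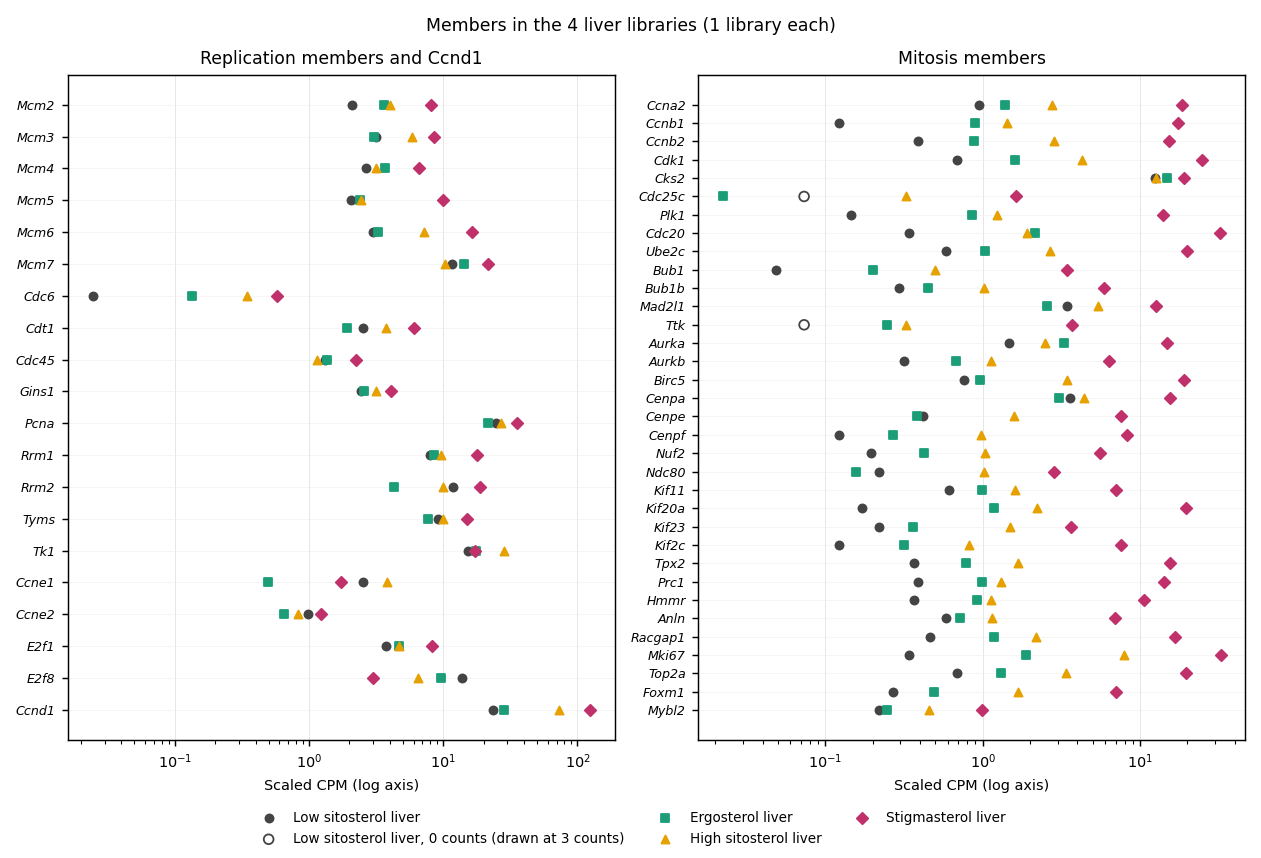
Scaled CPM (horizontal log axis) of each replication gene and Ccnd1 (left) and each mitosis gene (right) in the 4 liver libraries; each point is 1 library, and open circles mark genes with 0 counts drawn at the limit of 3 counts. The mitosis genes spread widely with the stigmasterol liver at the right, whereas most replication genes lie close together and E2f8 runs the other way.

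Among the replication genes, the MCM helicase subunits set the stigmasterol liver apart. Mcm6 (chromosome 1, 128331590 to 128359664) had 2.98 scaled CPM on low sitosterol, 3.25 on ergosterol, 7.19 on high sitosterol and 16.3 on stigmasterol. Its log2 ratios were 0.13 (-0.23 to 0.49), 1.27 (0.97 to 1.58) and 2.44 (2.18 to 2.73), and it was the one replication gene counted as higher on high sitosterol. Mcm5 (chromosome 8, 75109569 to 75128439) had 2.05, 2.38, 2.42 and 10.03, with a stigmasterol ratio of 2.28 (1.96 to 2.63). Mcm5 therefore differed on stigmasterol and lay within counting error of low sitosterol in the other livers. Mcm2 (chromosome 6, 88883474 to 88898780) had 2.10, 3.59, 3.99 and 8.17, with ratios of 0.77 (0.39 to 1.17), 0.92 (0.55 to 1.31) and 1.95 (1.63 to 2.30). Mcm3, Mcm4 and the loading factor Cdt1 were also higher on stigmasterol, at ratios of 1.43, 1.33 and 1.24. Mcm7 (0.89), Cdc45 and Gins1 were not counted. The gene span of Mcm7 overlaps Cops6 and Ap4m1, and an unstranded library cannot separate by strand any reads from shared sequence. Whether their exons overlap was not checked. Of the 10 licensing and helicase genes, 9 passed the filter, of which 6 were higher on stigmasterol, 1 on high sitosterol and 0 on ergosterol. The shares over all genes analysed were 21.7%, 8.67% and 6.05%.

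Cdc6, which loads the helicase with Cdt1, was the replication gene under the filter in liver. It had 1 count on low sitosterol, 6 on ergosterol, 16 on high sitosterol and 39 on stigmasterol, for a stigmasterol log2 ratio of 4.11 with an interval of 1.99 to 9.89. Its order matched that of the mitosis genes at levels of at most 0.572 scaled CPM.

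The clamp and nucleotide genes had the highest summed TPM of the replication roles in each liver (48.6 on low sitosterol, 133 on stigmasterol) and lower ratios. Pcna, the sliding clamp (chromosome 2, 132249162 to 132253314), had 24.6, 21.7, 27.1 and 35.4 scaled CPM on low sitosterol, ergosterol, high sitosterol and stigmasterol. Its stigmasterol ratio was 0.52 (0.42 to 0.63), not counted, but 1.22 with library totals and 1.43 on TPM. Rrm2, the regulated subunit of ribonucleotide reductase (chromosome 12, 24708241 to 24714146), had 11.8, 4.29, 9.91 and 18.9. It was 2.76-fold lower on ergosterol, a log2 ratio of -1.46 (-1.72 to -1.22), and 0.67 (0.52 to 0.82) on stigmasterol, where library totals gave 1.36. Rrm1, the other subunit, was counted as higher on stigmasterol (1.15) and was 0.09 on ergosterol. Thymidine kinase (Tk1) was highest on high sitosterol, with 15.2, 17.6, 28.3 and 17.1 scaled CPM, and shares its locus with Afmid.

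Cyclin E1 and E2f8 departed from the rest. Cyclin E1 (Ccne1, chromosome 7, 38097984 to 38107534), which activates CDK2 at the start of S phase, had 103 counts on low sitosterol, 22 on ergosterol, 177 on high sitosterol and 117 on stigmasterol. In scaled CPM these were 2.52, 0.494, 3.82 and 1.72. It was 5.001-fold lower on ergosterol, a log2 ratio of -2.32 (-3.08 to -1.67); on log2(TPM + 0.1) the ratio was -0.97, just short of 2-fold. Its stigmasterol ratio was -0.55 (-0.95 to -0.16) and became 0.14 with library totals and 0.30 on TPM. E2f8, an atypical E2F that represses E2F targets and takes part in hepatocyte polyploidy (chromosome 7, 48866429 to 48881596), had 560, 430, 301 and 204 counts on low sitosterol, ergosterol, high sitosterol and stigmasterol. In scaled CPM these were 13.7, 9.65, 6.499 and 2.99, the reverse of the order of the mitosis genes. Its ratios were -0.50 (-0.69 to -0.32), -1.07 (-1.28 to -0.87) and -2.19 (-2.43 to -1.96). The stigmasterol value was 4.56-fold lower; it was also counted as lower with DESeq2 size factors (-2.24), library totals (-1.50) and on log2(TPM + 0.1) (-1.20), while the high sitosterol value was -0.88 with library totals and -0.80 on TPM, short of 2-fold. E2f1, an activating E2F, had 3.76, 4.65, 4.69 and 8.18 scaled CPM, with a stigmasterol ratio of 1.12 (0.86 to 1.39).

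Cyclin D1 (Ccnd1, chromosome 7, 144929931 to 144939925), which links growth signals to entry into the cycle, followed the order of the mitosis genes. It had 23.6 scaled CPM on low sitosterol, 28.5 on ergosterol, 72.9 on high sitosterol and 124 on stigmasterol. Its ratios were 0.27 (0.15 to 0.39), 1.62 (1.52 to 1.73) and 2.39 (2.30 to 2.49), the last 2 counted as higher.

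**Figure D4:**
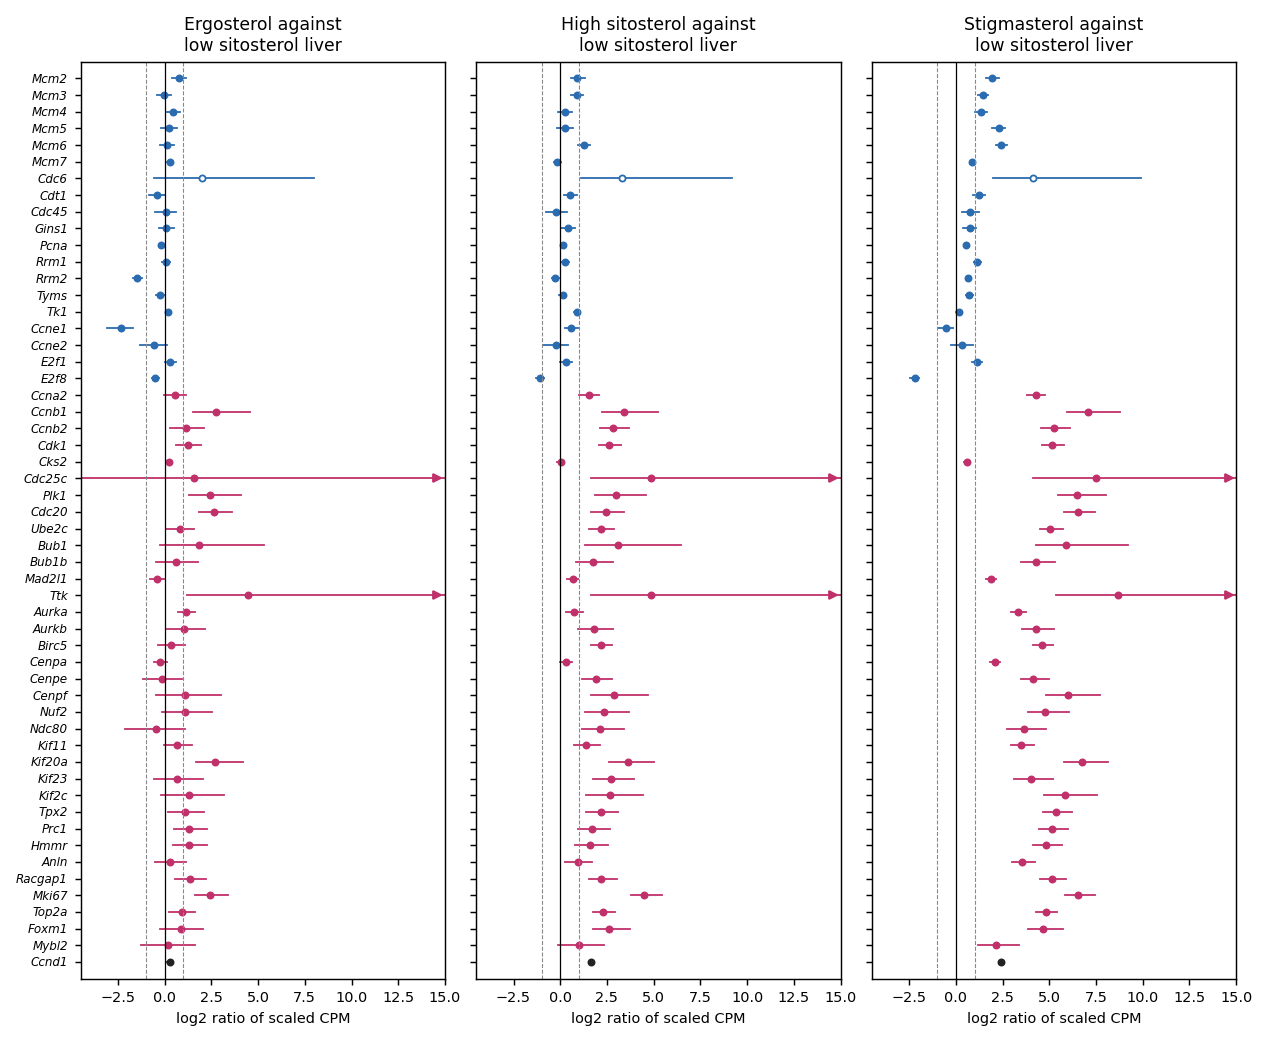
log2 ratio of scaled CPM (horizontal axis) of each gene in the ergosterol, high sitosterol and stigmasterol livers against the low sitosterol liver, with exact 95% counting intervals; blue is replication, pink mitosis, black Ccnd1, dashed lines mark 2-fold, arrows an interval without an upper end, and the open symbol (Cdc6) is under the filter. Mitosis genes with counts in both libraries reach 7.05 on stigmasterol (Ttk and Cdc25c, at 0 counts on low sitosterol, are drawn with the prior count and have no upper end), replication genes reach 2.44 among those analysed, and E2f8 lies at -2.19.

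The 3 liver ratios share the low sitosterol library, so their likeness is not independent. In the high sitosterol liver, 28 of 34 mitosis genes were counted as higher and 0 as lower, where 8.67% of all genes analysed were higher and 4.30% lower; the median log2 ratio was 2.19 (2.17 with genes at 0 set to their bound), against -0.05 over all genes. Those not counted were Cks2, Cenpa, Mad2l1, Aurka, Anln and Mybl2, of which the first 3 were the lowest at 0.02, 0.29 and 0.66. Of 18 replication genes analysed, 1 was higher (Mcm6) and 1 lower (E2f8), with a median of 0.27. With library totals 4 were higher and 0 lower, where 11.3% of all genes were higher and 3.13% lower. Over all genes 66.9% of calls were higher, 78.4% with library totals and 81.5% on TPM.

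In the ergosterol liver, 14 of 34 mitosis genes were counted as higher and 0 as lower, where 6.05% of all genes analysed were higher and 5.81% lower; the median was 1.07 (1.06 with genes at 0 set to their bound), against 0.02 over all genes. The highest of those with at least 1 CPM were Kif20a at 2.72, Cdc20 at 2.61 and Mki67 at 2.42. Below 0 lay Mad2l1 (-0.42), Cenpa (-0.22), Cenpe and Ndc80. Of the replication genes 0 were higher and 2 lower, Ccne1 and Rrm2, with a median of 0.07. Over all genes 51.01% of calls were higher, 65.1% with library totals and 80.4% on TPM.

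The livers were also set against each other without the low sitosterol library. Stigmasterol against high sitosterol had 33 of 34 mitosis genes higher and 0 lower, where 16.5% of all genes were higher and 5.59% lower, with a median of 2.53 against 0.10 over all genes. Without the 9 genes that passed the filter through the stigmasterol library alone, 24 of 25 were higher, against 10.6% of the genes left. Cdc20 (4.06), Ccnb1 (3.60) and Plk1 (3.49) were highest and Cks2 (0.58), Mad2l1 (1.22) and Kif23 (1.29) lowest. Of 18 replication genes 5 were higher, all MCM subunits led by Mcm5 (2.05), and 2 lower, Ccne1 (-1.15) and E2f8 (-1.12). With library totals 13 were higher and 0 lower, where 29.05% of all genes were higher and 2.59% lower. Stigmasterol against ergosterol had 33 mitosis genes higher and 0 lower, where 19.4% of all genes were higher and 7.09% lower, with a median of 3.88; without the same 9 genes 24 of 25 were higher, against 13.3% of the genes left. There Cdc25c (5.71, interval 3.67 to 11.50), Cenpf (4.89) and Kif2c (4.54) were highest. Of the replication genes 8 were higher, led by Mcm6 (2.32) and Rrm2 (2.14), and E2f8 was lower (-1.69). With library totals 16 were higher, where 30.0% of all genes were. Ergosterol against high sitosterol had 18 mitosis genes lower and 0 higher, where 8.96% of all genes were lower and 6.18% higher, with a median of -1.08. Ndc80 (-2.61), Mki67 (-2.07) and Kif23 (-2.02) were lowest, and of the replication genes Ccne1 (-2.92), Rrm2 (-1.21) and Mcm6 (-1.14) were lower. On log2(TPM + 0.1) 10 mitosis genes were lower, where 7.09% of all genes were lower. Over all genes the share of calls that were higher moved from 74.7% to 91.8% with library totals for stigmasterol against high sitosterol, from 73.2% to 90.4% for stigmasterol against ergosterol, and from 40.8% to 52.4% on TPM for ergosterol against high sitosterol.

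**Figure D5:**
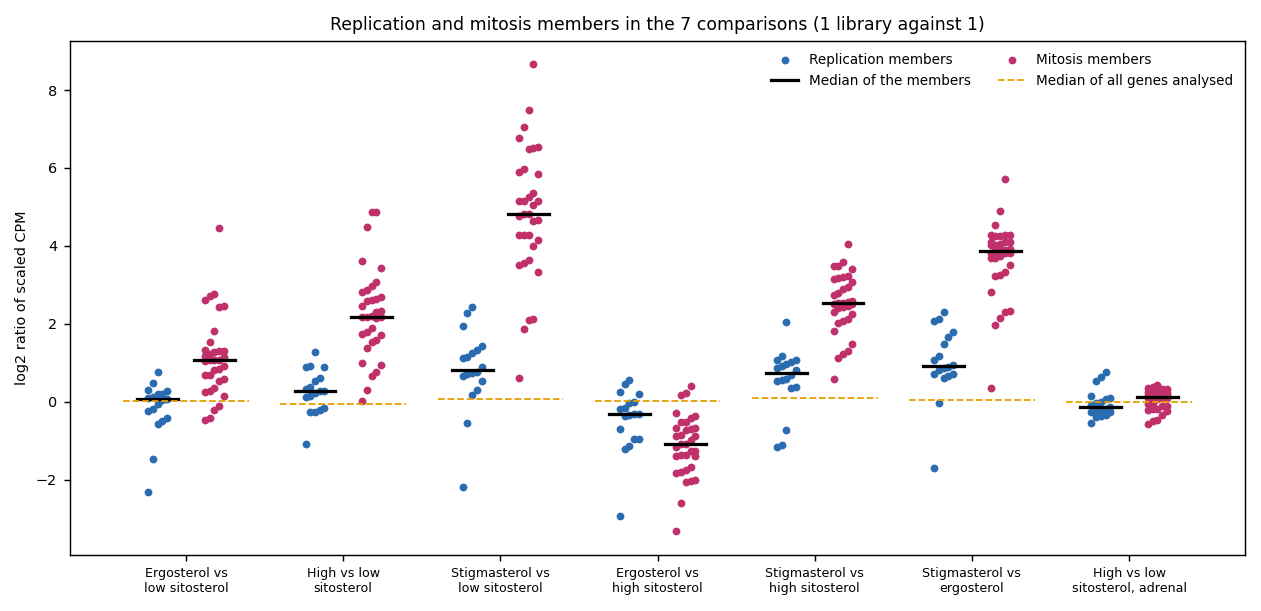
log2 ratio of scaled CPM (vertical axis) of each replication and mitosis gene in the 7 comparisons, each 1 library against 1; black bars are medians of the genes shown and dashed lines the median of all genes analysed. The mitosis median departs from 0 in every liver comparison, up to 4.82, and lies at 0.12 in the adrenal.

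In the adrenal, high against low sitosterol gave 0 mitosis and 0 replication genes higher or lower, where 3.83% of all genes analysed were higher and 2.31% lower. There is no p-value with 1 library a group, and by the other scalings run the count stayed 0, except that on log2(TPM + 0.1) Cenpf was lower. The median log2 ratio was 0.12 over the 33 mitosis genes analysed (Cdc25c was under the filter) and -0.13 over the 19 replication genes. Ratios ran from -0.58 for Cenpf to 0.44 for Aurkb among mitosis genes. Cenpf had 3.68 and 2.46 scaled CPM but 1.37 and 0.403 TPM on low and high sitosterol, so its 2 units differ in size. Among replication genes Cdc45, which starts the helicase, was highest: 321 and 639 counts, or 7.77 and 13.2 scaled CPM, a log2 ratio of 0.77 (0.57 to 0.96). Pcna followed with 65.5 and 103 scaled CPM (0.65, 0.58 to 0.72). Of the 10 licensing and helicase genes 9 lay below 0, Mcm2 at -0.40 (-0.50 to -0.30) and Mcm5 at -0.36 (-0.53 to -0.19). Mki67 had 12.1 and 10.3 scaled CPM (-0.24, -0.42 to -0.06), Top2a 7.65 and 8.998, Cdk1 4.41 and 5.58, Foxm1 4.65 and 5.27, and Ccnd1 183 and 160.

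By level, the adrenals held more of these transcripts than the low sitosterol liver. TPM was higher in the low sitosterol adrenal than in the low sitosterol liver for 33 of 34 mitosis genes (Cks2 excepted) and 16 of 19 replication genes (Gins1, Tk1 and E2f8 excepted). The stigmasterol liver was above both adrenals for 32 of 34 mitosis genes, not Bub1b and Mybl2, but for 6 of 19 replication genes. Summed, mitosis genes came to 101 and 103 TPM in the low and high sitosterol adrenals and replication genes to 220 and 254, a mitosis to replication ratio of 0.461 and 0.406. TPM is a share of each tissue's RNA, so these levels compare shares.

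Other genes of the pathway came from a list of 28 replication and 30 mitosis genes beside the 54; those named had at least 1 CPM in the higher library. On stigmasterol 26 of 29 further mitosis genes analysed were higher and 0 lower (median 3.66), on high sitosterol 14 and 0 (1.10), and on ergosterol 6 and 1 (0.28). Of all genes analysed, 21.7%, 8.67% and 6.05% were higher in that order, and 7.79%, 4.30% and 5.81% lower. The largest on stigmasterol were Kif18b (6.65), Ckap2 (6.39), Pbk (6.09) and Kif4 (5.63). Genes that passed the filter through the stigmasterol library alone, such as Pbk, had to differ there. How many of the 29 did so was not counted. Of the genes at that level, Ckap2 was also largest on high sitosterol (2.97), ahead of Asf1b (2.84), Nusap1 (2.73) and Kif22 (2.53), and on ergosterol (2.72). Of 26 further replication genes, 11 were higher and 1 lower on stigmasterol (median 0.87). Among the higher were Clspn (3.88), a replication checkpoint mediator, Uhrf1 (3.79), which reads hemimethylated DNA, and Chaf1b (3.38), a histone chaperone. Clspn passed the filter through the stigmasterol library alone, so it had to differ there. On high sitosterol 3 were higher, among them Chaf1b (2.44) and Uhrf1 (1.94), and 2 lower, Pola1 (-1.20), the catalytic subunit of DNA polymerase alpha, and Mcm10, with 12 of 26 below 0 and a median of 0.06. On ergosterol 1 was higher (Chaf1a, 1.21) and 2 lower, with a median of 0.05. Their sum did not follow the order of the mitosis genes, at 186 TPM on low sitosterol, 125 on ergosterol, 118 on high sitosterol and 192 on stigmasterol. The highest single gene in each liver held 126, 51.1, 43.1 and 25.1 TPM of these sums in that order. Most of the low sitosterol sum thus came from 1 gene, and the order of the sums is not a trait of the whole list. The gene lower on stigmasterol was Mcm10, at 197 scaled CPM on low sitosterol, 57.3 on ergosterol, 52.7 on high sitosterol and 19.7 on stigmasterol, and at 1.28 and 1.82 in the adrenals. Its ratios were -1.78, -1.90 and -3.32, counted as lower on all 3 diets. Gins2 was lower on ergosterol (-1.47).

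Regulators of the G1 to S step were mixed. The Cdk inhibitor p21 (Cdkn1a) had 10.9, 36.0, 20.6 and 86.1 scaled CPM on low sitosterol, ergosterol, high sitosterol and stigmasterol, so it was higher on ergosterol (1.72) and stigmasterol (2.98). Cdkn2c (p18) was higher on high sitosterol (1.67) and stigmasterol (2.35), and Cdkn3, a phosphatase of CDKs, reached 6.33 on stigmasterol. Cdkn3 passed the filter through the stigmasterol library alone, so it had to differ there. Of the 7 Cdk inhibitors analysed 6 were higher on stigmasterol, 2 on high sitosterol, and on ergosterol 2 were higher and 1 lower. Over all genes analysed the higher shares were 21.7%, 8.67% and 6.05%, and 5.81% were lower on ergosterol. Of the other G1 cyclins and CDKs, 1 of 6 was higher on stigmasterol (Ccnd2, 1.40) and 0 on high sitosterol or ergosterol. E2f2 was higher in all 3 livers, at 4.85 on stigmasterol, 3.19 on high sitosterol and 3.14 on ergosterol, and the pocket protein gene Rbl1 on stigmasterol (2.43). No other of the 10 Rb and E2F genes analysed was counted, so both lists' shares on stigmasterol lay near the 21.7% of all genes that were higher; with library totals 5 of the 10 and 3 of the 6 were higher, and the share of all genes was 39.5%.

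Of 8 growth signal genes analysed in liver, 4 were higher and 1 lower on stigmasterol, 2 and 0 on high sitosterol, 1 and 1 on ergosterol. Of all genes analysed, 21.7%, 8.67% and 6.05% were higher in that order, and 7.79%, 4.30% and 5.81% lower. Myc had 2.93, 35.0, 8.96 and 33.5 scaled CPM on low sitosterol, ergosterol, high sitosterol and stigmasterol, and so did not follow the order of the mitosis genes. The growth factor receptor gene Egfr had 711, 224, 484 and 178, lower on ergosterol (-1.67) and stigmasterol (-1.997). Tgfb1, whose product restrains hepatocyte division, was higher on stigmasterol (1.95) and high sitosterol (1.01). In the adrenal Il6 was higher (6.35) at 0.0242 and 2.88 scaled CPM, Fgfr4 (-1.20) and Met (-1.08) lower, and E2f7, the relative of E2f8, higher (1.07).

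Markers of some other cell types were higher in the stigmasterol liver and those of others were not, where 21.7% of all genes analysed were higher and 7.79% lower. Bile duct markers (Krt19, Krt7, Sox9, Epcam, Spp1 and Cldn4) were higher for 6 of 6, and their summed TPM was 42.5 on low sitosterol, 33.0 on ergosterol, 50.9 on high sitosterol and 1188 on stigmasterol. Spp1 alone was 1117 TPM there, and without it the sums were 3.67, 3.76, 5.02 and 71.1. Markers of lipid-associated macrophages (Gpnmb, Trem2, Cd9, Spp1 and Mmp12; Spp1 is in both lists) were higher for 4 of 5, summing to 82.8, 62.4, 115 and 1342 TPM, or 44.0, 33.2, 69.2 and 225 without Spp1. General macrophage markers were higher for 3 of 8 and lower for 3, though they summed to 129, 230, 459 and 506 TPM. The lower ones mark resident Kupffer cells: Clec4f had 79.5 scaled CPM on low sitosterol and 24.1 on stigmasterol, Vsig4 15.9 and 6.98, and Timd4 2.98 and 0.205. Stellate cell and fibroblast markers were higher for 4 of 6 (16.8, 16.0, 19.9 and 250 TPM) and B and plasma cell markers for all 3 analysed (1.36, 4.06, 3.33 and 27.96 TPM). Hepatocyte genes were lower for 3 of 6 and higher for 0, with a median of -0.97, but with library totals 0 were lower, and their summed TPM was 61185 on low sitosterol and 61023 on stigmasterol. Erythroid precursor markers, higher for 0 and lower for 1 of 3, summed to 77.1, 93.3, 91.9 and 80.9 TPM; neutrophil markers were higher or lower for 0 of 2, and Ly6g was at 0 in every liver but the stigmasterol one. T and NK cell markers were higher for 2 of 5 (3.35, 4.09, 5.27 and 11.9 TPM) and endothelial markers for 0 of 5 (15.1, 26.8, 21.7 and 39.6 TPM). With library totals 4 of 5 and 3 of 5 were higher, where 39.5% of all genes were. In the high sitosterol liver, where 8.67% of all genes were higher and 4.30% lower, macrophage markers were higher for 7 of 8, lower for 1 (Timd4). Bile duct markers were higher for 2 of 6. Lipid-associated macrophage markers were higher there for 3 of 5, Gpnmb at a log2 ratio of 7.56, Mmp12 at 4.82 and Trem2 at 2.996. T and NK cell markers were higher for 3 of 5 (Cd8a, Nkg7 and Gzma) and lower for 1 (Cd4). On ergosterol macrophage markers were higher for 2 of 8 (230 TPM), bile duct markers for 0 of 6, and both neutrophil genes analysed were lower. Of all genes 6.05% were higher and 5.81% lower on ergosterol. In the adrenal, where none of the 54 genes was counted, macrophage markers were higher for 3 of 7 and both neutrophil genes analysed were higher, against 3.83% of all genes. The part of these cell types in the cell cycle values was not tested.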

How the data were processed

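Per the labels, RNA came from livers and adrenals of Abcg8-deficient mice and was purified on Qiagen RNeasy columns; an unstranded kit, TruSeq RNA Library Prep v2, served for library making. The authors deposited estimated counts per gene symbol, not whole for 71.4% to 77.8% of detected genes, and TPM (a share of transcripts, scaled by length) of each library. Tools listed in the submitters' processing notes are kallisto 0.43.1, HISAT2 2.0.5 and Trimmomatic 0.33, with mm10 as the build; the annotation and filters are not given in the sources used here. Of 33639 symbols, 32158 matched GENCODE M21 (GRCm38), from which gene positions were taken. By whole gene span, 12 of the 54 genes overlap another gene of the table, among them Cdc20, Kif20a, Ccna2, Ube2c and Prc1. A row naming no gene, with 0 counts, was left out.

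Estimated counts were rounded and scaled with TMM factors within each tissue (edgeR 4.0.16). Genes were kept that reached 1 CPM in any library of a tissue (13378 genes in liver, 14224 in adrenal). log2 ratios used a prior count of 0.5, with exact (Clopper-Pearson, conditional binomial) 95% intervals for counting error only, since PCR copies are not independent molecules. The ratios and intervals were tested on simulated Poisson counts with no TMM step, and their recovery and coverage only at higher counts. That check does not show how they hold for low counts, fractional estimates or uncertain scaling. No test between diets was possible.

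The 54 genes, the other gene lists and the comparisons were chosen with earlier results of these data known. Full values are given for Mki67, Top2a, Cdk1, Ccnb1, Foxm1, Mcm2, Mcm5, Pcna, Rrm2, Ccne1, E2f8 and Ccnd1, then for the 3 highest and 3 lowest ratios among replication and among mitosis genes at 1 CPM or more, and the 4 largest at 1 CPM or more of each further pathway list. Other genes named, and the promoters printed, were chosen after their values were seen. Alternatives were library totals, DESeq2 1.42.0 size factors, log2(TPM + 0.1), no filter, a prior count of 5 and a 1.5-fold limit. TMM factors from only the pair of libraries compared, and counts without the genes that reached 1 CPM in the stigmasterol liver alone, were added after seeing the data. Those counts were made for the 54 genes and for all genes. The further pathway and marker lists were not recounted without such genes, which include Pbk, Clspn, Cdkn3 and the growth signal gene Hbegf.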

Additional observations from a re-analysis of the deposited data

Results flagged for a closer look

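The log2 ratio of high to low sitosterol had opposite signs in liver and adrenal, with counting intervals that exclude equality in both tissues, for 11 of the 52 genes analysed in both (21.2%). Over all 12477 genes analysed in both the share was 17.9%, so the pooled share of these genes lay near it. Taken apart, it was 5 of 18 replication genes (27.8%) and 5 of 33 mitosis genes (15.2%). The difference between tissues was not tested, since each tissue has 1 library per diet. Among replication genes, the adrenal log2 ratio was -0.40 for Mcm2 (liver 0.92), -0.27 for Mcm3 (0.90), -0.26 for Mcm6 (1.27), -0.23 for Rrm1 (0.28) and -0.35 for E2f1 (0.32). Among mitosis genes it was -0.48 for Ccnb1 (3.43), -0.34 for Mad2l1 (0.66), -0.58 for Cenpf (2.88), -0.50 for Kif20a (3.60) and -0.24 for Mki67 (4.49). Ccnd1 was at -0.19 in adrenal and 1.62 in liver. None of the adrenal values reached 2-fold. The adrenal libraries go against their male label, and whether the liver and adrenal of a diet came from the same mouse is not given.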

How the results depend on the processing

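No paired analysis was possible because each group has 1 library. No call changed direction under the alternatives run. Each count of genes called was compared with the reported one under each alternative. It stayed within 1.5 times the reported count in 171 such pairs and not in 25. Pairs with 0 in both are among the 171, so that number overstates the stability. Among the 12 genes given in full, 479 ratios kept their side of the limit, 15 newly passed it and 10 no longer did. With library totals, replication genes counted as higher numbered 4 on high sitosterol and 15 on stigmasterol. They numbered 13 for stigmasterol against high sitosterol and 16 for stigmasterol against ergosterol. Those lower numbered 0 on high sitosterol and 0 for stigmasterol against high sitosterol. The shares of all genes higher were 11.3%, 39.5%, 29.05% and 30.03% in that order, and the lower shares 3.13% and 2.59%. On log2(TPM + 0.1) the higher counts of replication genes were 4, 16, 14 and 16, with 1 on ergosterol. The lower counts were 0 on high sitosterol, 0 for stigmasterol against high sitosterol and 1 on ergosterol. Over all genes the higher shares were 10.7%, 46.5%, 32.7% and 28.6%, with 12.1% on ergosterol, and the lower shares 2.42%, 2.17% and 2.95%. On that scale mitosis genes gave 1 lower in adrenal (Cenpf), and 1 higher and 10 lower for ergosterol against high sitosterol. Of all genes 2.44% were lower in adrenal, and 7.79% were higher and 7.09% lower for ergosterol against high sitosterol. Without the filter, which adds Cdc6, 2 replication genes were higher on high sitosterol, where 4.79% of all genes were. At a 1.5-fold limit, replication genes counted as higher numbered 5 on high sitosterol, 1 on ergosterol, 13 on stigmasterol and 2 in adrenal. The shares of all genes higher were 14.2%, 13.99%, 29.9% and 10.18% in that order. For stigmasterol against high sitosterol 11 replication genes were higher, where 25.96% of all genes were. For stigmasterol against ergosterol 16 were higher, where 26.75% of all genes were. For ergosterol against high sitosterol 6 were lower, where 16.7% of all genes were. Mitosis genes counted as higher ranged from 33 to 34 on stigmasterol, 26 to 31 on high sitosterol and 11 to 16 on ergosterol over all alternatives. The shift under library totals follows from the TMM factors; on TPM the cause was not tested. With 5 to 28 counts for many mitosis genes in the low sitosterol liver, the size of their ratios is known only within the intervals given.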
